A study of Mus musculus with 4 samples.

Results

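The Rbm genes encode RNA-binding motif proteins, and their transcripts were followed here in RNA that came down with the RNA-binding protein Cpeb4. The members were all genes whose symbol is Rbm, Rbms or Rbmx followed by a number, with at most a letter and a digit after it, which gave 43 of the 53379 genes in the deposited table. Only symbols set the membership, but the family was chosen by its fold changes and calls in the same Cpeb4 against IgG comparison, so these are given as a description. The Cpeb4 group was RNA immunoprecipitated with an anti-Cpeb4 antibody from lysates of the V-SVZ (ventricular-subventricular zone), where new neurons are born beside the lateral ventricles. The IgG group was RNA recovered from the same tissue with control IgG. All animals were wild-type (WT) CD1 mice at postnatal day 7 or 8 (P7/P8), and both antibodies were used in each of 2 experiments, which gave 2 libraries per antibody. The labels do not say whether the experiments used separate animals or whether animals were pooled, so p-values reflect the spread among these 4 libraries alone, which may be technical.

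Rbm proteins are named for the RNA recognition motif, a small fold through which a protein binds single-stranded RNA. Most act in the nucleus, where they help choose splice sites, mark spliced mRNA, guide its methylation or deliver faulty transcripts to the exosome, and a few act on mRNA stability and translation in the cytoplasm. In neural tissue, splicing and mRNA decay change as precursors differentiate, and several family members are known from brain development. Cpeb4 binds cytoplasmic polyadenylation elements near the 3′ ends of mRNAs and sets their poly(A) tail length and translation. The values below are levels of Rbm transcripts in the precipitates and say nothing of the amounts of Rbm protein.

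Levels are in FPKM, fragments per kilobase of gene. The libraries are scaled, within 0.93%, by size factors that divide the reads of each library, and not by read totals. This is called the authors' scaling below. The size factors recovered from the deposited values were 1.18 and 0.76 for the Cpeb4 libraries and 1.11 and 1.04 for the IgG libraries. Reads assigned to genes came to 35037171 and 24483742 in the Cpeb4 libraries, against 24094241 and 22486721 with IgG. The mRNA of the antibody's target, Cpeb4, was at 26.7 and 38.3 FPKM in the Cpeb4 libraries, against 9.04 and 9.66 FPKM in the IgG libraries. Among markers of the tissue, 12 neuroblast genes summed to 952 and 957 FPKM in the Cpeb4 libraries and to 583 and 580 in the IgG libraries, with 9 of 12 called higher. The 12 neural stem cell and radial glia genes summed to 1242 and 1350 FPKM in the Cpeb4 libraries and to 771 and 730 in the IgG libraries, with 9 called higher and 1 lower. Of 8 oligodendrocyte lineage genes 7 were called higher, while 3 of 8 ependymal and 3 of 7 blood and choroid plexus genes were called lower and none higher. Microglial genes were called lower in 5 and higher in 1 of 10, and endothelial and mural genes lower in 2 and higher in 1 of 8 tested. All these counts stand beside 38.8% of all tested genes called higher and 11.6% called lower. Under all 5 scalings described below, 6 neuroblast, 5 stem cell and radial glia and 1 oligodendrocyte lineage gene were called higher. So were 1 microglial and 1 endothelial or mural gene, beside 17.3% of all tested genes. The summed microglial level was 195 and 188 FPKM in the Cpeb4 libraries and 194 and 180 in the IgG libraries. No listed marker was at 0 in all libraries. The part of these cell types in the Rbm values was not tested. Both antibodies were used on the same tissue in each experiment, so these counts compare precipitates and do not measure numbers of cells. In bulk tissue the cells that a transcript came from are not known. No library of total input RNA was used here.

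Of the 43 Rbm genes, 38 reached 1 FPKM in at least 2 libraries and were tested. In both experiments most of them were more abundant with Cpeb4: both Cpeb4 libraries lay above both IgG libraries for 32 genes, below them for 3 and overlapped for 3. Over all 15745 tested genes, the Cpeb4 libraries lay above in 53.2% and below in 22.7%. A gene was called when limma, fitted to log2(FPKM + 1) across all genes with the experiment as a block, gave a Benjamini-Hochberg adjusted p under 0.05. By this rule 26 Rbm genes were called higher, 1 was called lower and 11 were not called, beside 38.8% of all tested genes called higher and 11.6% called lower. The called higher genes had limma adjusted p between 1.13e-06 and 0.0332 and log2 fold changes between 0.35 and 1.26. At least a 2-fold change of FPKM + 1 accompanied 5 of them, Rbm27, Rbm7, Rbm41, Rbms1 and Rbm18, beside 10.8% of all tested genes, and 0 were lower by as much, beside 1.77%. With a pseudocount of 0.1 the log2 fold changes of Rbm34, Rbm12, Rbm11 and Rbm46 also exceeded 1, at 1.11, 1.03, 1.68 and 1.05. Leaving out IgG replicate 1 left 17 Rbm genes called higher, beside 26.5% of all tested genes, and leaving out IgG replicate 2 left 16, beside 25.3%. With limma-voom on recovered reads 27 Rbm genes were called higher and 1 lower, beside 41.2% of all genes called higher. Rbm11 and Rbm46 passed the filter only through the Cpeb4 libraries, so they had to differ, and without them 24 of 36 were called higher. In the authors' deposited table, 19 of the 42 Rbm genes with an adjusted p were higher and 1 was lower at the same threshold, beside 21.7% and 4.93% of all genes, and all 19 are among the 26.

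**Figure D1:**
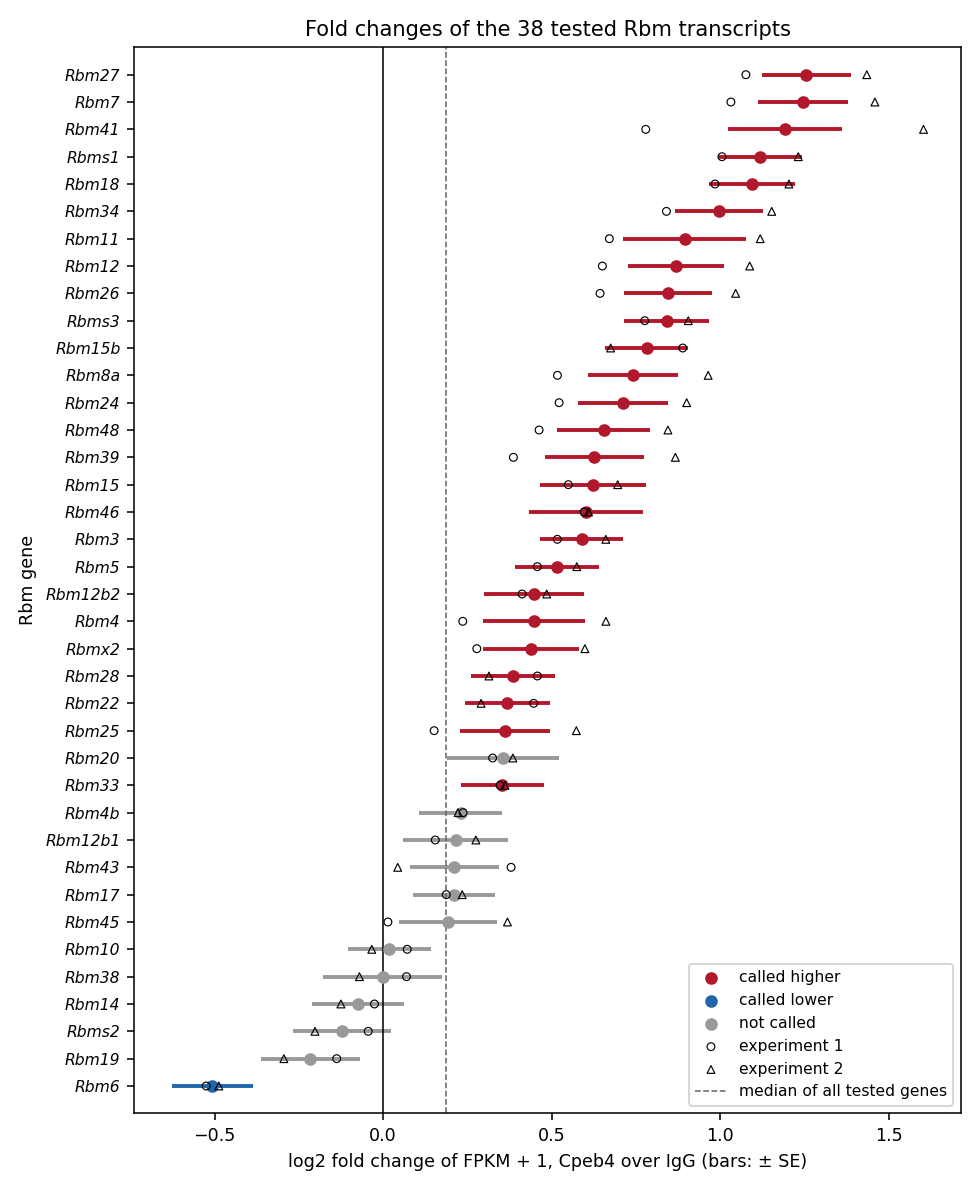
Log2 fold change of FPKM + 1, Cpeb4 over IgG, for the 38 tested Rbm genes with the authors' scaling. Filled points with bars are the limma estimates ± SE, open circles and triangles the differences within experiments 1 and 2, and the dashed line the median of all tested genes at 0.19. Most genes lie right of the dashed line and Rbm6 stands alone as called lower. Under the other 4 scalings 10 to 17 genes are called higher in place of 26. The share of all tested genes called higher is then 17.5% to 26.0% in place of 38.8%.

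The number of calls moved with the scaling of the libraries. Each of the 4 alternative scalings lowers the Cpeb4 libraries against the IgG libraries, and all 1822 lower calls over all genes were kept, so keeping a lower call says nothing of stability. With the authors' scaling the median log2 fold change was 0.48 over the tested Rbm genes and 0.19 over all tested genes. Scaling by trimmed mean of M-values moved the median of all genes to -0.02, centring on the median of tested genes to -0.11, the upper quartile to -0.17 and read totals to -0.24. Under these 4 scalings the median of the Rbm genes was 0.27, 0.18, 0.13 and 0.075, which is 0.29 to 0.31 above that of all genes, a distance that scaling moves little because it shifts all genes nearly alike. The distance was 0.43 without Cpeb4 replicate 1, 0.22 without Cpeb4 replicate 2 and 0.51 with no filter, against 0.30 with all libraries. With read totals, 10 Rbm genes were called higher and 5 lower, beside 17.5% and 42.4% of all tested genes. The 10 called higher under all 5 scalings were Rbm27, Rbm7, Rbm41, Rbms1, Rbm18, Rbm34, Rbm11, Rbm12, Rbm26 and Rbms3, beside 17.3% of all tested genes. Without Rbm11 and Rbm46, which passed the filter only through the Cpeb4 libraries, 9 of 36 tested Rbm genes held, or 25%. Experiment 2 gave the larger difference for 28 of the 38 genes, with a median of 0.60 against 0.45 in experiment 1, whereas the medians of all genes were 0.18 and 0.20.

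**Figure D2:**
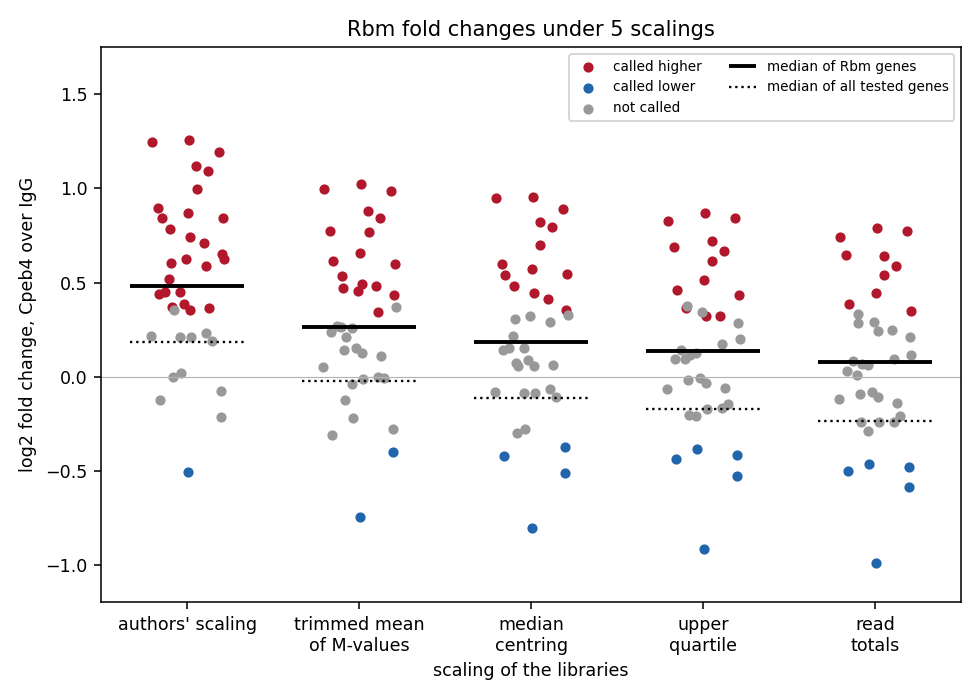
Log2 fold changes, Cpeb4 over IgG, of the 38 tested Rbm genes under 5 scalings of the libraries, each point a gene coloured by its call. The solid bar is the median of the Rbm genes and the dotted bar that of all tested genes, and both fall together from left to right, with 0.48 and 0.19 under the authors' scaling and 0.075 and -0.24 with read totals.

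Levels spanned more than 2 orders of magnitude. The most abundant member, averaged over the 4 libraries, was Rbm39 at 129 FPKM, followed by Rbm18 at 62.6, Rbm5 at 56.9, Rbm25 at 43.0 and Rbm7 at 41.9. At the other end of the tested genes stood Rbm38 at 0.92, Rbm11 at 1.11 and Rbm46 at 1.21. The tested members rested on 80 to 12390 reads in the first and 32 to 10104 in the second Cpeb4 library, and on 38 to 8483 and 34 to 8067 reads in the IgG libraries, so the least abundant ones carry the larger counting error.

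**Figure D3:**
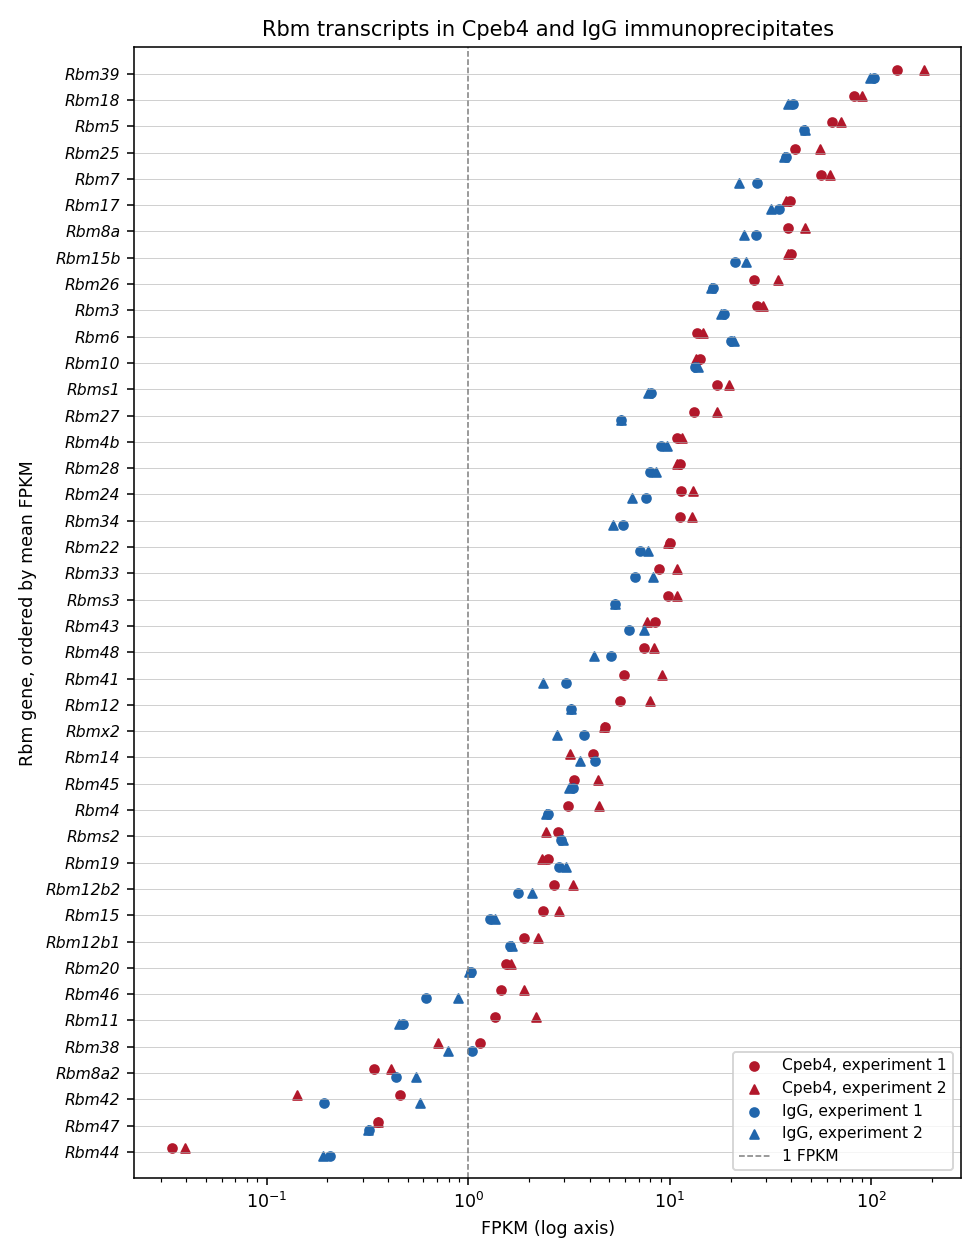
FPKM of 42 Rbm genes in each library on a log axis, ordered by mean level, with Cpeb4 libraries in red and IgG libraries in blue and circles and triangles for experiments 1 and 2. Rbm31y, at 0 in all libraries, is left out. The red points lie right of the blue ones for most genes above the dashed line at 1 FPKM, and left of them for Rbm6, Rbms2 and Rbm19.

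Members that mark, modify or dispose of nuclear RNA were all called higher, 7 of 7 tested, with a median log2 fold change of 0.78, beside 38.8% of all tested genes and their median of 0.19. The roles were assigned with these results known. Of these 7 calls, 3 held under all 5 scalings, beside 17.3% of all tested genes. Rbm7, the RNA-binding subunit of the nuclear exosome targeting complex, was at 56.4 and 62.2 FPKM in the Cpeb4 libraries of experiments 1 and 2, against 27.1 and 22 FPKM in the IgG libraries. The groups did not overlap, and FPKM + 1 was 2.37-fold higher with Cpeb4 (limma adjusted p = 1.4e-06, log2 1.25 ± 0.13 SE). Rbm27, a CCCH zinc finger protein that joins the nuclear decay of polyadenylated RNA in human cells, was at 13.2 and 17.2 FPKM in the Cpeb4 libraries and at 5.74 in each IgG library. On the log2 scale FPKM + 1 was higher by 1.26 with Cpeb4 (limma adjusted p = 1.13e-06, SE 0.13). Its paralog Rbm26 was at 26.2 and 34.3 FPKM in the Cpeb4 libraries and at 16.4 and 16.1 in the IgG libraries, a log2 fold change of 0.84 (SE 0.13). Both paralogs were thus higher with Cpeb4 in each experiment, and the Rbm26 call was lost when a trend on gene length and level was removed (limma adjusted p = 0.0575).

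Rbm15 and Rbm15b recruit the m6A writer complex to RNA. Rbm15b was the more abundant of the pair, at 39.9 and 38.5 FPKM in the Cpeb4 libraries and 21.1 and 23.7 in the IgG libraries (log2 fold change 0.78, SE 0.12). Rbm15 was at 2.35 and 2.81 FPKM in the Cpeb4 libraries and 1.29 and 1.35 in the IgG libraries (log2 fold change 0.62, SE 0.16). The groups of neither gene overlapped, but both calls were lost with read totals (limma adjusted p = 0.0756 for Rbm15b and 0.12 for Rbm15), and that of Rbm15 also by upper quartile and by median centring. Removing the length and level trend left Rbm15b at 0.13 and ended its call (limma adjusted p = 0.38). Rbm8a, or Y14, a core subunit of the exon junction complex that marks spliced mRNA, was at 38.6 and 46.7 FPKM in the Cpeb4 libraries and at 26.6 and 23.4 in the IgG libraries (log2 fold change 0.74, SE 0.13). Its call too was lost with read totals (limma adjusted p = 0.136) and with the trend removed (limma adjusted p = 0.0818). Rbm33, which in human cells partners an m6A demethylase, was at 8.83 and 10.8 FPKM in the Cpeb4 libraries and 6.73 and 8.21 in the IgG libraries, with a log2 fold change of 0.35. The Rbm33 call was lost under each of the other 4 scalings (limma adjusted p between 0.411 and 0.843), without the experiment block (0.067) and without Cpeb4 replicate 2 or either IgG replicate, and the value was -0.11 with read totals.

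Splicing factors and regulators formed the largest group, with 9 of 14 tested members called higher, 1 lower and 4 not called. Their median log2 fold change was 0.40. Over all tested genes 38.8% were called higher and 11.6% lower, with a median of 0.19. Only Rbm41 and Rbm11 were higher under all 5 scalings, 14.3% of the tested members beside 17.3% of all tested genes. Rbm11 passed the filter only through the Cpeb4 libraries. Rbm41, a relative of a minor spliceosome protein, was at 5.93 and 9.19 FPKM in the Cpeb4 libraries and at 3.04 and 2.35 in the IgG libraries. Its difference varied more between experiments than that of any other tested member, at 0.78 and 1.6 on the log2 scale within experiments 1 and 2 around an estimate of 1.19 ± 0.17 (SE; limma adjusted p = 2.31e-05). Rbm48, a minor spliceosome factor, was at 7.41 and 8.32 FPKM in the Cpeb4 libraries and 5.11 and 4.19 in the IgG libraries (log2 fold change 0.65, SE 0.14). Its call was lost by upper quartile and with read totals (limma adjusted p = 0.0746 and 0.195). Rbm11, a splicing regulator known from brain and testis, was scarce at 1.35 and 2.16 FPKM in the Cpeb4 libraries and 0.48 and 0.46 in the IgG libraries, or 114 and 118 against 38 and 34 reads. Its log2 fold change of 0.90 (SE 0.18) is held down by the added 1 FPKM, and the authors' deposited table gives 1.87 (SE 0.44).

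Rbm39, a coactivator that also helps select splice sites, was at 134 and 181 FPKM in the Cpeb4 libraries and at 102 and 98.9 in the IgG libraries. It was called higher with the authors' scaling (limma adjusted p = 0.00194, log2 fold change 0.63 ± 0.15 SE), and under none of the other 4 scalings (limma adjusted p between 0.0538 and 0.521). The Rbm39 call was also lost without IgG replicate 1 or 2 (limma adjusted p = 0.0627 and 0.0845), and the value was 0.0029 with the length and level trend removed. Rbm25, which regulates splicing of apoptosis genes, was at 41.8 and 55.6 FPKM in the Cpeb4 libraries and 37.5 and 37.0 in the IgG libraries, and its log2 fold change of 0.36 reached -0.14 with read totals. Rbm39, Rbm5 and Rbm25, the splicing genes among the 5 most abundant members, thus kept their calls under none of the other 4 scalings. Rbm22, a protein at the heart of the catalytic spliceosome, was at 10.03 and 9.77 FPKM in the Cpeb4 libraries and 7.09 and 7.81 in the IgG libraries (log2 fold change 0.37, SE 0.13), and reached -0.09 with read totals. The Rbm22 call was lost under each of the other 4 scalings. Rbmx2, whose yeast relative belongs to a complex that retains unspliced RNA in the nucleus, was at 4.75 and 4.70 FPKM in the Cpeb4 libraries and 3.75 and 2.76 in the IgG libraries (log2 fold change 0.44, SE 0.14), a call that none of the other scalings gave. Rbm17, or SPF45, which reads the 3′ splice site, was at 39.6 and 37.6 FPKM in the Cpeb4 libraries and 34.7 and 31.8 in the IgG libraries and was not called (estimate 0.21 ± 0.12 SE on the log2 scale). The heart splicing factor Rbm20 was at 1.54 and 1.63 FPKM in the Cpeb4 libraries and 1.03 and 1.01 in the IgG libraries. It was not called with the authors' scaling (limma adjusted p = 0.0877) or any other (limma adjusted p between 0.297 and 0.787).

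The related genes Rbm5, Rbm6 and Rbm10, which share a domain layout and regulate exon choice in apoptosis and proliferation genes, went separate ways. Rbm5 was at 63.9 and 70.6 FPKM in the Cpeb4 libraries and at 46.2 and 47.0 in the IgG libraries, a log2 fold change of 0.52 (limma adjusted p = 0.00265, SE 0.12). Rbm6 was at 13.6 and 14.6 FPKM in the Cpeb4 libraries and at 20.02 and 20.8 in the IgG libraries, a log2 fold change of -0.51 (limma adjusted p = 0.00241, SE 0.12). Rbm10 was at 14.1 and 13.5 FPKM in the Cpeb4 libraries and at 13.3 and 13.9 in the IgG libraries, so its groups overlapped (log2 fold change 0.02, SE 0.12). The Rbm6 difference was -0.53 and -0.49 within experiments 1 and 2 and -0.99 with read totals. Without IgG replicate 1 or 2 the Rbm6 call was lost (limma adjusted p = 0.0515 and 0.0781), at log2 fold changes of -0.53 and -0.48. The Rbm5 call was lost under each of the other 4 scalings, where its log2 fold change lay between 0.0087 and 0.26, and Rbm10 was called lower with read totals (-0.46, limma adjusted p = 0.0027) and by upper quartile (-0.38, limma adjusted p = 0.0119). Rbm5 (chromosome 9: 107740495 to 107771007, GRCm38) and Rbm6 (chromosome 9: 107773559 to 107873358) lie on the minus strand with 2551 bp between them, so neighbouring genes of 1 family differed in direction with the authors' scaling.

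Rbm4 and Rbm4b, splicing regulators, sit 18.35 kb apart on chromosome 19, with Rbm14 a further 6.556 kb away. Rbm4 was at 3.12 and 4.43 FPKM in the Cpeb4 libraries and 2.498 and 2.44 in the IgG libraries (limma adjusted p = 0.0214, log2 fold change 0.45 ± 0.15 SE), a call lost under each other scaling. Rbm4b was at 10.8 and 11.5 FPKM in the Cpeb4 libraries and 9.02 and 9.68 in the IgG libraries (log2 fold change 0.23, SE 0.12) and was not called. Rbm14, a coactivator found in paraspeckles, was at 4.18 and 3.20 FPKM in the Cpeb4 libraries and 4.27 and 3.58 in the IgG libraries (log2 fold change -0.08, SE 0.14). Its groups overlapped, although it was called lower with read totals, by upper quartile and by median centring (log2 fold changes of -0.48, -0.42 and -0.37). These 3 genes overlap the gene Gm21992, which was at 1.25 and 1.26 FPKM in the Cpeb4 libraries and 1.09 and 1.17 in the IgG libraries, so their reads could be divided differently by another count.

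Of the 3 members with yeast relatives in ribosome assembly, Rbm34 and Rbm28 were called higher and Rbm19 was not called. Over all tested genes 38.8% were called higher. Only the Rbm34 call held under all 5 scalings, beside 17.3% of all tested genes. Rbm34 was at 11.3 and 12.9 FPKM in the Cpeb4 libraries and 5.87 and 5.23 in the IgG libraries, a log2 fold change of 0.997 (limma adjusted p = 1.07e-05, SE 0.131). Rbm28 was at 11.3 and 10.9 FPKM in the Cpeb4 libraries and 7.93 and 8.54 in the IgG libraries (log2 fold change 0.39, SE 0.12), and reached -0.08 with read totals and -0.0060 by upper quartile. The Rbm28 call was lost under each of the other 4 scalings (limma adjusted p between 0.313 and 0.973). Rbm19 was at 2.48 and 2.31 FPKM in the Cpeb4 libraries and 2.83 and 3.06 in the IgG libraries (limma adjusted p = 0.237, log2 fold change -0.22 ± 0.15 SE). The Cpeb4 libraries lay below the IgG libraries for Rbm19, and the 4 alternative scalings each called it lower, with values of -0.59 to -0.40 on the log2 scale.

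Among members that act on mRNA stability and translation, 5 of 7 tested were called higher and none lower. Over all tested genes these shares were 38.8% and 11.6%. Rbm46, 1 of the 5, passed the filter only through the Cpeb4 libraries. Beside 17.3% of all tested genes, 2 held under all 5 scalings. These were the Rbms proteins Rbms1 and Rbms3, which bind A- and U-rich or single-stranded sequences. Rbms1 was at 17.1 and 19.6 FPKM in the Cpeb4 libraries and 8.04 and 7.79 in the IgG libraries (limma adjusted p = 2.19e-06, log2 fold change 1.12 ± 0.13 SE). Rbms3 was at 9.83 and 10.8 FPKM in the Cpeb4 libraries and at 5.32 in each IgG library (limma adjusted p = 4.27e-05, log2 fold change 0.84 ± 0.13 SE). Their paralog Rbms2 was at 2.77 and 2.44 FPKM in the Cpeb4 libraries and 2.89 and 2.96 in the IgG libraries and was not called (estimate -0.12 ± 0.15 SE on the log2 scale), or was called lower with read totals, by upper quartile and by median centring (-0.50, -0.44 and -0.42). The Rbms genes thus had values on both sides of the median gene.

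Rbm3, a cold-induced protein that promotes translation and protects synapses in mice, was at 27.1 and 29.0 FPKM in the Cpeb4 libraries and 18.6 and 18 in the IgG libraries (limma adjusted p = 0.000783, log2 fold change 0.59 ± 0.12 SE). The call held by trimmed mean of M-values and was lost under the other 3 scalings (limma adjusted p between 0.0585 and 0.579) and with the length and level trend removed (0.19, limma adjusted p = 0.215). Cirbp, the other cold-inducible RNA-binding protein, which the symbol pattern does not take in, was at 41.0 and 38.9 FPKM in the Cpeb4 libraries and 49.2 and 48.8 in the IgG libraries and was not called (limma adjusted p = 0.0626, log2 fold change -0.29 ± 0.12 SE). Rbm24, which stabilises and splices muscle mRNAs, was at 11.4 and 13.0 FPKM in the Cpeb4 libraries and 7.63 and 6.52 in the IgG libraries (log2 fold change 0.71, SE 0.13), a call lost with read totals (limma adjusted p = 0.123). Its paralog Rbm38, a target of p53, was at 1.14 and 0.71 FPKM in the Cpeb4 libraries and 1.04 and 0.79 in the IgG libraries, with overlapping groups. Rbm46, known from mouse germ cells, was at 1.45 and 1.88 FPKM in the Cpeb4 libraries and 0.62 and 0.89 in the IgG libraries (log2 fold change 0.60, SE 0.17), on 94 and 79 against 38 and 51 reads, and among the other scalings kept its call only by trimmed mean of M-values.

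The remaining members have no role assigned here or, like Rbm14, act elsewhere. Of 7 tested, with Rbm14 among them, 3 were called higher and 4 were not called, with a median log2 fold change of 0.21. Among all tested genes the share called higher was 38.8% and the median 0.19. Of the 3 calls, 2 held under all 5 scalings, beside 17.3% of all tested genes. Rbm18 was the second most abundant of the family, at 81.6 and 89.7 FPKM in the Cpeb4 libraries and at 40.8 and 38.4 in the IgG libraries, 2.14-fold higher (limma adjusted p = 3.19e-06, log2 1.09 ± 0.13 SE). The call held under all 5 scalings, where the log2 fold change was at least 0.59. Rbm12 was at 5.66 and 7.96 FPKM in the Cpeb4 libraries and 3.24 and 3.22 in the IgG libraries (limma adjusted p = 0.000101, log2 fold change 0.87 ± 0.14 SE). Rbm12 lies within Cpne1 on the same strand, which was at 0.56 and 0.42 FPKM in the Cpeb4 libraries and 0.25 and 0.42 in the IgG libraries, so reads where the 2 genes overlap are uncertain. Rbm12b2 was at 2.67 and 3.32 FPKM in the Cpeb4 libraries and 1.76 and 2.08 in the IgG libraries (log2 fold change 0.45, SE 0.15), a call lost under each other scaling. The neighbouring copy Rbm12b1 was at 1.90 and 2.22 FPKM in the Cpeb4 libraries and 1.60 and 1.66 in the IgG libraries and was not called (estimate 0.21 ± 0.16 SE on the log2 scale); copies so alike may share reads. Rbm43 was at 8.43 and 7.68 FPKM in the Cpeb4 libraries and 6.25 and 7.42 in the IgG libraries. Rbm45, known from neural tissue, was at 3.36 and 4.38 FPKM in the Cpeb4 libraries and 3.32 and 3.17 in the IgG libraries. The Cpeb4 libraries lay above for both genes, by log2 fold changes of 0.21 and 0.19 that were not called and were below 0 under each other scaling.

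The 5 genes below the filter were Rbm8a2, Rbm42, Rbm44, Rbm47 and Rbm31y, and none of them is tested. Rbm44, known from germ cells in mice, was at 0.034 and 0.039 FPKM in the Cpeb4 libraries and 0.21 and 0.19 in the IgG libraries, on 4 and 3 against 23 and 20 reads. Rbm47, a cofactor of C-to-U RNA editing, was at 0.36 in each Cpeb4 library and 0.32 in each IgG library. Rbm42 had 25 and 5 reads in the Cpeb4 libraries and 10 and 28 in the IgG libraries, so its replicates differed more than its groups. Rbm8a2, annotated as a pseudogene, had 14 and 11 reads in the Cpeb4 libraries and 17 and 20 in the IgG libraries, and may share reads with Rbm8a. The Y-linked Rbm31y was listed at 0 in all 4 libraries.

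Partners of the Rbm proteins were called in both directions, and their counts stand beside 38.8% higher, 11.6% lower and a median of 0.19 over all tested genes. Of 6 m6A writer subunits that work with Rbm15 and Rbm15b, 3 were called higher, 1 lower and 2 not called, with a median log2 fold change of 0.41. Cbll1, Wtap and Mettl14 had log2 fold changes of 1.47, 1.204 and 0.57, and Zc3h13 had -0.57. The Cbll1 and Wtap calls held under all 5 scalings, beside 17.3% of all tested genes, and the Mettl14 call did not. Of 8 exon junction complex genes, 3 were called higher and 5 not called, with a median of 0.22, a share and a median close to those over all genes. The 3 were Sap18 at 1.10 and the Rbm8a partners Magohb at 0.73 and Magoh at 0.57. Of these calls only that of Sap18 held under all 5 scalings. Of 7 genes that work with Rbm7 in nuclear exosome targeting and at the cap, 3 were higher, 2 lower and 2 not called, with a median of 0.07. Ncbp1, Ncbp2 and the scaffold Zcchc8 had log2 fold changes of 0.80, 0.70 and 0.50, while Srrt had -0.40 and Zfc3h1 -0.33. None of the 3 higher calls among the Rbm7 partners held under all 5 scalings.

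Early spliceosome genes that meet Rbm5, Rbm10, Rbm17 and Rbm39 were called in both directions or not called. The lists here stand beside 38.8% of all tested genes called higher, 11.6% lower and a median of 0.19. Sf1, Dhx15, Sf3b1 and Sf3a2 were called higher, with log2 fold changes of 0.79, 0.69, 0.50 and 0.39, none of them under all 5 scalings. The SF3 subunits Sf3b3 and Sf3a3 were called lower, with -0.44 and -0.43. U2af1, U2af2, Sf3b2 and Sf3a1 were not called, with 0.14, 0.07, -0.02 and 0.16. Of 9 minor spliceosome genes that work beside Rbm48 and Rbm41, 1 was called higher, 1 lower and 7 not called, with a median of -0.03. These were Zrsr2 at 0.37, a call that did not hold under all 5 scalings, and Rnpc3 at -0.35. Of 4 tested paraspeckle genes Sfpq was higher at 0.61 and Nono lower at -0.41, and the Sfpq call did not hold under all 5 scalings. Related RNA-binding genes outside the symbol pattern, 11 tested, had a median of 0.03. Rbfox1 at 1.65 and Raver2 at 0.83 were called higher, or 18.2% of those tested, and Rnpc3 was called lower. Rbmx itself, the X-linked hnRNP that shares the family name, was at 38.5 and 41.7 FPKM in the Cpeb4 libraries and 32.2 and 33.2 in the IgG libraries and was not called (limma adjusted p = 0.0629, log2 fold change 0.29 ± 0.12 SE).

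Gene length was set beside the fold change, as the length implied by each gene's FPKM and reads. Across the 38 tested Rbm genes the log2 fold change and log2 length had a Pearson correlation of 0.15 and a Spearman correlation of 0.15. Across 15633 tested genes these were 0.33 and 0.30. The difference between these correlations was not tested, and genes share their libraries and are not independent replicates. The Rbm genes had a median length of 3537 bp, against 3079 bp over all tested genes. With the trend on length and level removed, 13 Rbm genes were called higher and 3 lower, beside 23.85% and 25.71% of all genes. The median of the Rbm genes then stood 0.27 above that of all genes.

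**Figure D4:**
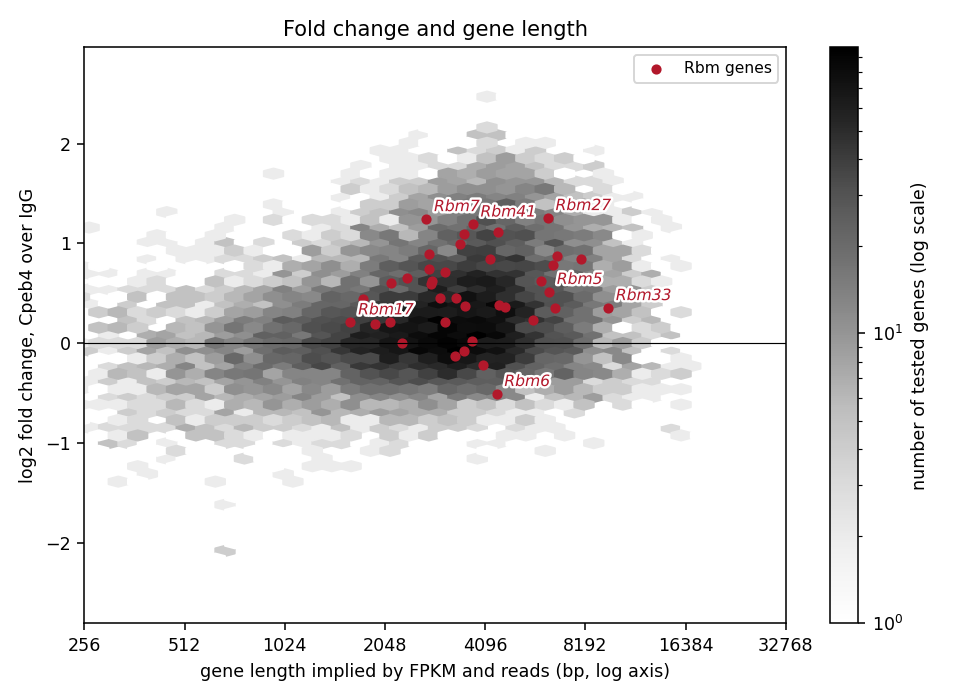
Log2 fold change, Cpeb4 over IgG, against gene length in bp on a log axis, with all tested genes as a grey density and the 38 tested Rbm genes as red points, 7 of them named. The Rbm genes spread from 1612 to 9586 bp, and the tallest, Rbm27, Rbm7 and Rbm41, are 6316, 2725 and 3758 bp long.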

How the data were processed

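RNA recovered with anti-Cpeb4 or IgG was measured in 4 libraries. Per the labels' protocols, SMART-Seq v4 made the cDNA, without marking strand, and Nextera XT the libraries. The submitters' processing notes name Trim Galore 0.5.0, STAR 2.6.0c, HTSeq 0.6.1p2, DESeq2 1.26.0 and mm10, with no settings.

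Per the file headers, the authors deposited FPKM per library and their own comparison, with a mean level (a signal of reads divided by size factors), its log2 fold change, standard error, a score (estimate over standard error), a p-value and an adjusted p-value. The table held 0 columns of other samples. FPKM and the mean level together returned read numbers that were whole, within 0.01, for 100% of values in 30361 genes. Reads are not independent molecules.

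Genes with at least 1 FPKM in at least 2 libraries entered limma 3.58.1 (R 4.3.3) as log2(FPKM + 1), with terms for antibody and experiment, a trended prior and two-sided tests. The labels number the experiments across antibodies; the deviations of same-numbered libraries correlated at 0.002. The block left 1 residual degree of freedom and the prior added 14.6. The code was tested on simulated data. Replicates differed beyond sampling noise (chi-square per degree of freedom 20.2 for Cpeb4 and 4.28 for IgG). The trimmed mean of M-values was taken on recovered reads against the geometric mean of the libraries.

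The members, lists and roles were chosen with earlier results of these data known. Values in every library were given for the 8 largest and 8 smallest fold changes, the 5 highest levels and paralogs, by rule; other members were added after their values were seen. Partner genes were named where called, except for a result not reported here, and Cirbp, Rbmx and the genes overlapping members were added. Coordinates and strands are from RefSeq (GRCm38.p6), which held all 43 symbols. Protein and 3′ end sequences were not used here.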

Additional observations from a re-analysis of the deposited data

How the results depend on the processing

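With read totals, upper quartile, trimmed mean of M-values and median centring, the Rbm genes called higher numbered 10, 13, 17 and 14 and those called lower 5, 5, 2 and 4, with medians of 0.075, 0.13, 0.27 and 0.18. All genes called higher numbered 2759, 3240, 4091 and 3607 and lower 6670, 5856, 3621 and 4857, so that 29.3%, 35.6%, 53.0% and 42.6% of calls were higher, against 77.0% with the authors' scaling (6106 higher, 1822 lower). In these data each of these scalings lowered the Cpeb4 libraries relative to the IgG libraries. With the length and level trend removed, 13 Rbm genes were higher and 3 lower (median 0.23), and 3729 genes were higher and 4019 lower. With no filter, 15 Rbm genes were higher, and 3915 genes were higher and 875 lower of 46911 tested. With a minimum of 5 FPKM the median was 0.65 over 25 Rbm genes, and 937 genes were lower. The median was 0.60 with a pseudocount of 0.1 and 0.62 with limma-voom on recovered reads. Without the experiment block, 24 Rbm genes were higher (Rbm25 and Rbm33 lost their calls), beside 38.2% of all tested genes, and no other member's call changed. Leaving out 1 library at a time, without the block so that the lone library is assumed to vary like the pair, gave 16 to 28 Rbm genes higher, 0 to 1 lower and medians of 0.43 to 0.61, and 3977 to 6534 genes higher and 867 to 2497 lower. The Rbm median was 0.50 and 0.53 without IgG replicates 1 and 2, beside 0.19 and 0.18 over all tested genes. It was 0.61 and 0.43 without Cpeb4 replicates 1 and 2, beside 0.18 and 0.21.

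Some members changed sign. With read totals Rbm28, Rbm22, Rbm25, Rbm33, Rbm4b, Rbm12b1, Rbm43, Rbm17, Rbm45 and Rbm10 had log2 fold changes of -0.081, -0.094, -0.14, -0.11, -0.24, -0.12, -0.24, -0.29, -0.21 and -0.46. By upper quartile the same 10 had -0.0060, -0.019, -0.061, -0.033, -0.16, -0.065, -0.17, -0.21, -0.15 and -0.38. By trimmed mean of M-values Rbm4b, Rbm43, Rbm17, Rbm45 and Rbm10 had -0.0040, -0.015, -0.039, -0.0082 and -0.22. By median centring these 5 had -0.069, -0.087, -0.088, -0.11 and -0.28, and Rbm12b1 -0.084. With the length and level trend removed Rbm5, Rbm28, Rbm25, Rbm33, Rbm4b, Rbm17 and Rbm10 had -0.23, -0.017, -0.29, -0.11, -0.23, -0.085 and -0.39, and Rbm38 0.057; the cause was not tested. With limma-voom Rbm38 had 0.021. Leaving out libraries gave -0.0085 to 0.046 for Rbm10, -0.16 to 0.16 for Rbm38 and -0.23 to 0.075 for Rbm14. Depth limits Rbm11, Rbm38 and Rbm46 most.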
